A study of Homo sapiens with 36 samples.

Results

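The BCL2 family decides whether a cell releases the contents of its mitochondria and dies, and its transcripts were followed here through the response of human monocytic cells to bacterial lipopolysaccharide (LPS). The genes described are BCL2A1, MCL1, BCL2L1, BCL2, BCL2L11, BID, PMAIP1, BBC3, BAX and BAK1, chosen by name as 10 core members that promote or prevent apoptosis. Each was read from the probe with the highest mean among its probes detected on at least 3 arrays, and all 10 were among the 13582 genes tested.

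The cells were THP-1, an established human monocytic leukaemia line, so every array reports the same line and none reports primary monocytes. Each group had 3 biological replicates, 36 arrays in 12 groups. Some groups received LPS at 1 µg/ml, which signals through Toll-like receptor 4, or the HIV-1 envelope protein gp120 of strain SF162 at 1 nM. Others first received SB203580 (SB) at 10 µM for 15 min, an inhibitor of the stress kinase p38 MAPK. The groups at 4 h and again at 24 h were SB+LPS, LPS, SB+gp120, gp120, SB and control. Dimethyl sulfoxide and bovine serum albumin were the vehicles of the controls. The comparisons asked how LPS and gp120 change transcription, and how much of each change depends on p38.

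Antiapoptotic members such as BCL2, BCL2L1 (BCL-XL), MCL1 and BCL2A1 (BFL-1) bind and restrain their relatives. The effectors BAX and BAK1 form pores in the outer mitochondrial membrane, which lets cytochrome c escape. BH3-only members, among them BCL2L11 (BIM), BID, PMAIP1 (NOXA) and BBC3 (PUMA), carry stress signals to the others by occupying the restraining proteins or by triggering the effectors.

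Values are log2 intensities on Illumina HumanHT-12 v4 bead arrays after background correction and quantile normalisation, so a difference of 1 unit is a doubling of intensity. Differences were tested with limma in a single fit over all arrays. A difference was called at a Benjamini-Hochberg adjusted p under 0.05 over all genes, and errors on group means are SD over n = 3 arrays. Levels of different genes come from different probes and are not compared. In RNA of whole cultures, fewer cells carrying a transcript and less transcript per cell cannot be told apart.

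Mean raw signals of the arrays lay between 403.4 and 1572, with 34.8% to 44.38% of probes detected. Replicates correlated at 0.965 to 0.994. The dimmest arrays were replicate 1 of SB+LPS at 4 h (403.4) and replicate 1 of LPS at 4 h (456.7). Of 9 monocytic markers measured, LYZ, SPI1, CD68, FCGR1A, CSF1R, ITGAM, CEBPA and CD14 were detected on all 36 arrays and MPO on 15. Of 17 measured markers of lymphoid, erythroid, epithelial, endothelial and fibroblast cells, CD3E, CD8A, KLRD1, CDH5 and COL1A1 were detected on 0 arrays, 7 on 2 to 8, CD2 on 20, CD79A on 31, and NCAM1, NKG7 and PECAM1 on all 36. The arrays lay on 3 slides, with all arrays of a group on 1 slide. At 24 h LPS, gp120, SB and control shared slide 1. Slide 2 combined the SB+LPS and SB+gp120 arrays of 24 h with the gp120 and control arrays of 4 h, and the other 4 h groups shared slide 3. LPS against control at 4 h was therefore a comparison between slides, as were SB+LPS against SB and SB+LPS against LPS at 24 h, and there slide and treatment cannot be told apart without the assumptions of a slide model.

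**Figure D1:**
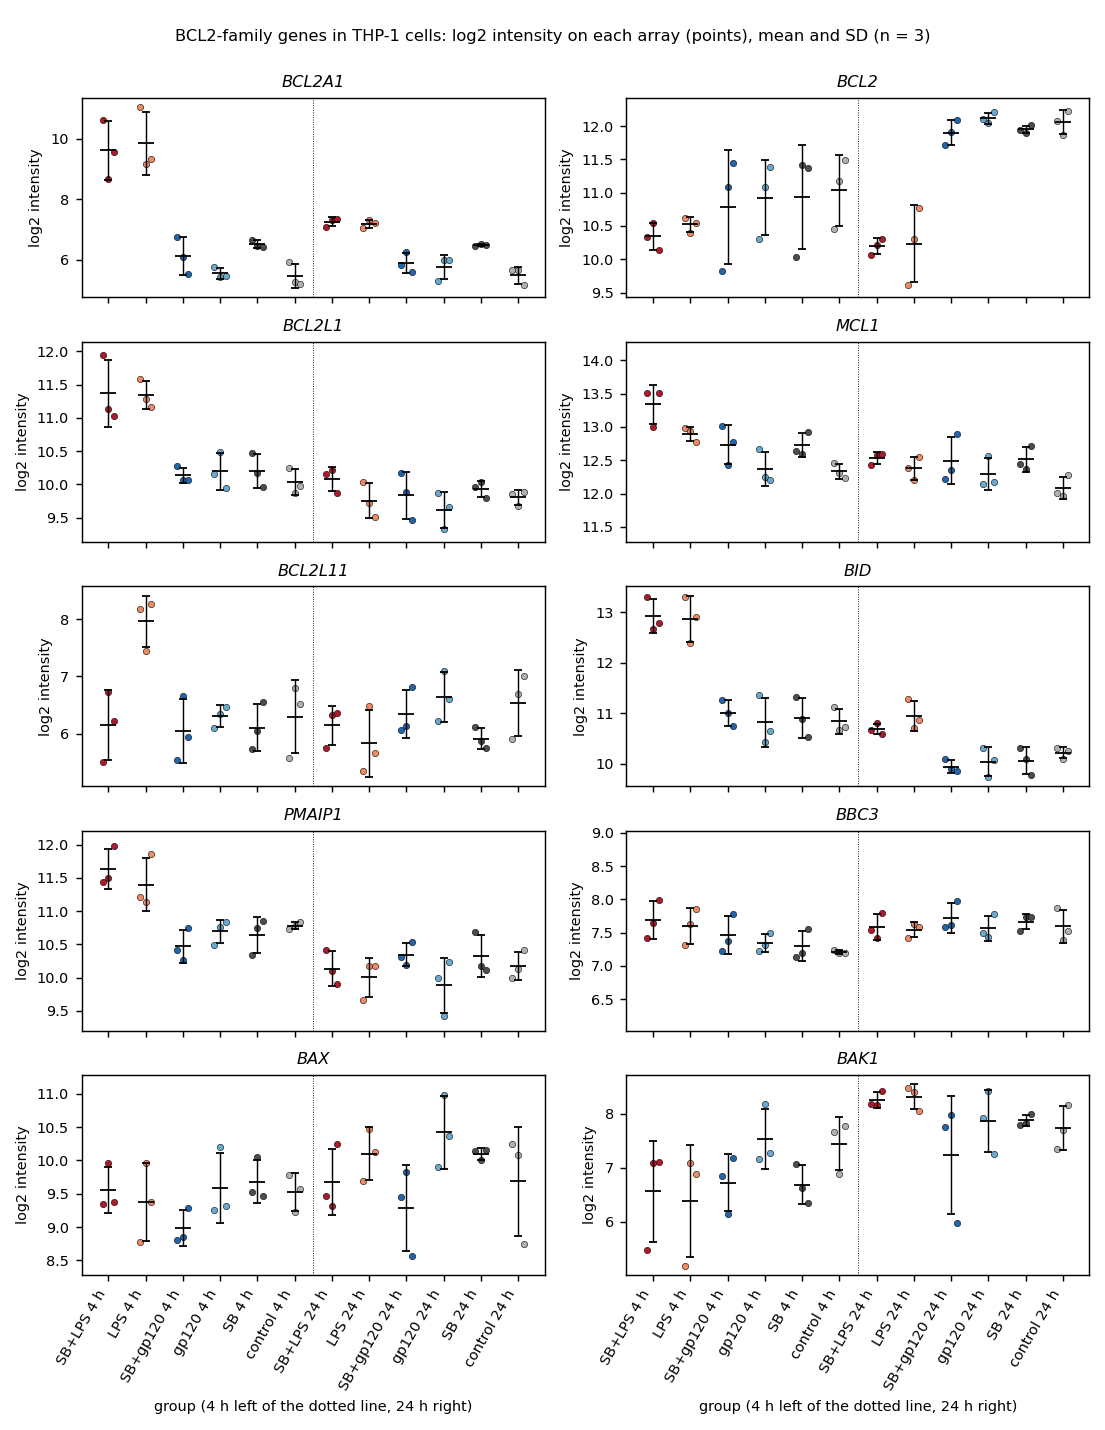
Log2 intensity of the 10 BCL2 family genes in the 12 groups, 1 panel per gene, with 1 point per array and a bar at each group mean (n = 3). BCL2A1 spanned 5.89 log2 units over the 36 arrays and BBC3 0.86. The 3 arrays of LPS at 4 h stand above all other arrays for BCL2L11.

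LPS raised 6 of the 10 family genes at 4 h and lowered 0, both restraining and death-promoting members among them. BCL2A1, BID, BCL2L11, BCL2L1, PMAIP1 and MCL1 were higher in LPS than in control. Over all genes 10.5% were called higher in this comparison, 16.4% lower and 26.8% in either direction. The median difference of the 10 members was 0.59 on the log2 scale, against −0.09 over all genes tested.

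BCL2A1, an antiapoptotic member known as an NF-κB target, had log2 intensities of 11.06, 9.17 and 9.32 in LPS at 4 h, against 5.93, 5.26 and 5.21 in control. The groups stood far apart, and the control probe was above background on 1 of 3 arrays. The means were 9.85 ± 1.05 in LPS and 5.47 ± 0.407 in control, a difference of 4.38 log2 units (SE 0.381) or 20.9-fold, with an adjusted p of 3.92e-10 in limma. Without background correction the difference was 2.94.

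BCL2L1 encodes BCL-XL, which guards mitochondria in many cell types. Its values were 11.58, 11.29 and 11.16 in LPS at 4 h, against 10.25, 9.87 and 9.98 in control, with no overlap. The difference was 1.31 (SE 0.216, limma adjusted p = 3.54e-05). MCL1, a short-lived antiapoptotic protein, had 12.98, 12.94 and 12.78 in LPS, against 12.46, 12.31 and 12.24 in control. Its arrays did not overlap either, with a difference of 0.56 (SE 0.187, limma adjusted p = 0.0246). BCL2, the founding member of the family, had 10.62, 10.4 and 10.55 in LPS, against 10.45, 11.18 and 11.49 in control. Replicate 1 of the control lay inside the LPS range, and the difference of −0.52 did not pass the test (limma adjusted p = 0.278).

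Replicate 1 also stood low for BCL2 in the other 4 h groups without LPS. It had 9.82 in SB+gp120, 10.3 in gp120 and 10.03 in SB, and the other replicates of these groups lay between 11.09 and 11.44. Without the 6 arrays numbered 1 at 4 h, a choice made after seeing the data, BCL2 was lower in LPS than in control by −0.86 (limma adjusted p = 0.0172) and lower in SB+LPS than in SB by −1.05 (limma adjusted p = 0.00637).

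Among the BH3-only genes, BID responded most clearly. BID, which caspase-8 cuts into an active fragment and which links death receptors to mitochondria, had 13.31, 12.39 and 12.91 in LPS at 4 h, against 11.13, 10.67 and 10.72 in control. The groups did not overlap, and LPS exceeded control by 2.03 (SE 0.244), 4.08-fold, with a limma adjusted p of 2.53e-07.

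BCL2L11 encodes BIM, a potent activator of cell death. It had 8.18, 7.45 and 8.26 in LPS at 4 h, against 5.58, 6.79 and 6.52 in control. Every LPS array exceeded every control array, and the difference was 1.67 (SE 0.361), 3.18-fold, with a limma adjusted p of 0.000873. Without background correction it was 0.99 (adjusted p = 0.000137), and the authors' log2 values gave the same. PMAIP1 (NOXA), which chiefly binds MCL1, had 11.21, 11.13 and 11.85 in LPS, against 10.73, 10.77 and 10.84 in control. The arrays did not overlap, and the difference was 0.62 (SE 0.222, limma adjusted p = 0.0387). BBC3 (PUMA), a classical p53 target, had 7.32, 7.63 and 7.85 in LPS, against 7.24, 7.19 and 7.2 in control, a difference of 0.39 that did not pass (limma adjusted p = 0.107) and that passed with the replicates as a block (limma adjusted p = 0.0302).

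The effectors were not called. BAX had 8.78, 9.96 and 9.38 in LPS at 4 h, against 9.78, 9.22 and 9.57 in control, with full overlap and a difference of −0.15 (limma adjusted p = 0.8). BAK1 had 5.18, 7.09 and 6.88 in LPS, against 7.67, 6.88 and 7.78 in control. Its low value of 5.18 came from the dim replicate 1 array, and the difference of −1.06 had a limma adjusted p of 0.0947. Without replicate 2 of LPS, a fit that keeps the dim array, the BAK1 difference was −1.42 (limma adjusted p = 0.0427). No other fit with a single array left out called BAK1 here.

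Because these arrays lay on different slides, a model with slide as a block was also fitted. In it BCL2A1 differed by 3.63 (limma adjusted p = 0.00371) and BID by 2.06 (0.0119), and the other 4 genes lost their calls: BCL2L1 at 1.29 (adjusted p = 0.105), MCL1 at 0.68 (0.399), PMAIP1 at 1.40 (0.0848) and BCL2L11 at −0.49 (0.805), which turned its sign. That model holds the effect of SB on the LPS response equal at both times. With arrays scaled to equal medians instead of quantiles the median of all genes moved to −0.71 and the share of higher genes among those called to 8.35%, against 39% in quantile-normalised values, and MCL1 (−0.22) and PMAIP1 (−0.27) turned their sign while BCL2A1 (3.87), BID (1.25) and BCL2L11 (1.04) kept theirs and their calls. BCL2L1 differed by 0.43 there (adjusted p = 0.27), and BCL2 (−1.42, adjusted p = 0.011) and BAK1 (−1.48, adjusted p = 0.0241) were called lower. The calls of MCL1 and PMAIP1 were thin in other ways too: with 1 array left out at a time, MCL1 kept its call in 2 of 6 fits, losing it without replicate 2 or 3 of control or replicate 1 or 2 of LPS (adjusted p up to 0.0934), and PMAIP1 kept its call in 1 of 6, the fit without replicate 2 of LPS (adjusted p up to 0.223, without replicate 3 of LPS). Both calls were also lost with only the groups compared (adjusted p = 0.0606 for MCL1 and 0.101 for PMAIP1) and without the 6 arrays numbered 1 at 4 h (0.0742 and 0.0947).

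**Figure D2:**
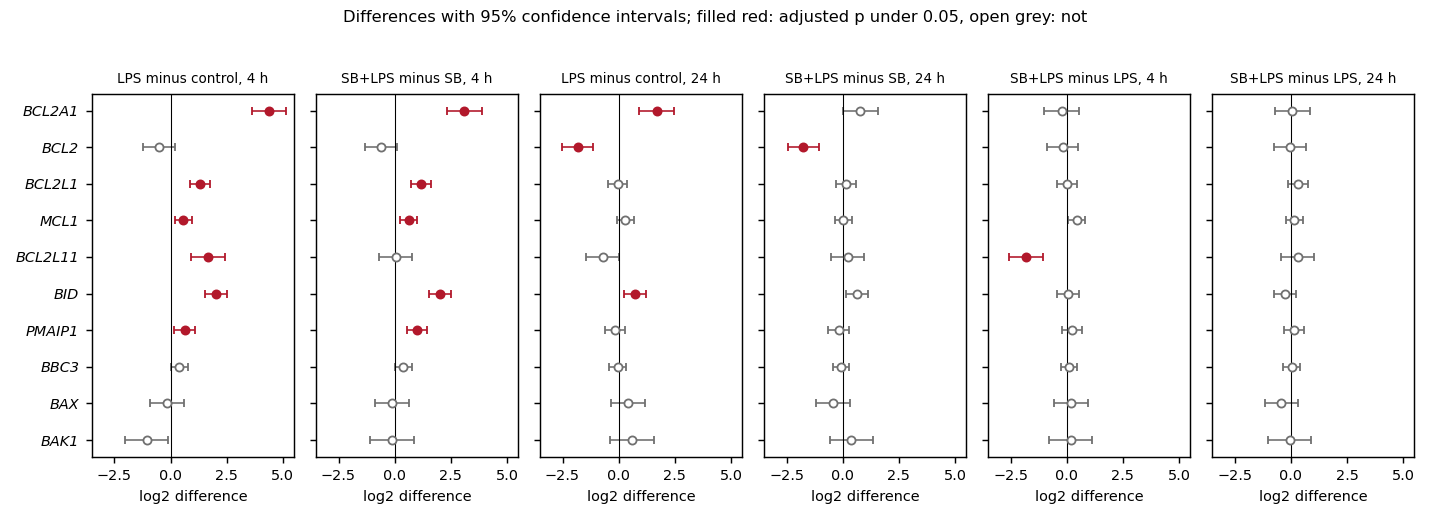
Differences in log2 intensity of the 10 genes in the LPS and SB comparisons, with 95% confidence intervals from limma and filled points where the adjusted p was under 0.05. BCL2A1 has the largest difference, 4.38 in LPS against control at 4 h, and BCL2L11 is the one filled point in SB+LPS against LPS, at −1.82.

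Addition of SB to LPS gave 1 call among the family genes at 4 h, and that gene was BCL2L11. Its level with SB+LPS fell below that with LPS. Over all genes 1.17% were called lower here, 1% higher and 2.17% in either direction. The 10 members had a median difference of 0.07 and all genes 0.01. These arrays shared a slide.

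BCL2L11 had 5.5, 6.72 and 6.22 in SB+LPS at 4 h, against 8.18, 7.45 and 8.26 in LPS. All SB+LPS arrays lay below all LPS arrays. The upper pair lay inside the range of 5.58 to 6.79 seen in control, and the lowest, 5.5, just under it. That lowest value came from replicate 1, the dimmest array of the series, and the probe was above background on 2 of 3 SB+LPS arrays. The means were 6.15 ± 0.614 in SB+LPS and 7.97 ± 0.448 in LPS, a difference of −1.82 (SE 0.361, 95% confidence interval −2.56 to −1.08), or 3.53-fold lower, with a limma adjusted p of 0.00653. SB and SB+gp120 at 4 h, on the same slide, had 5.54 to 6.65 over 6 arrays, so among the 4 groups of this slide LPS alone was high.

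The other members did not differ detectably between SB+LPS and LPS. BCL2A1 had 10.61, 8.68 and 9.57 in SB+LPS, against 11.06, 9.17 and 9.32 in LPS. The groups overlapped, with a difference of −0.23 (95% confidence interval −1.01 to 0.55). BID differed by 0.05 (−0.45 to 0.55) and BCL2L1 by 0.02 (−0.42 to 0.46), with the 95% confidence intervals in brackets, so smaller changes inside these bounds could not be detected. MCL1 had 13.51, 13 and 13.51 in SB+LPS, against 12.98, 12.94 and 12.78 in LPS, all higher without overlap, at 0.44 (limma adjusted p = 0.242).

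Without background correction the BCL2L11 difference was −1.06 (limma adjusted p = 0.00128), and the authors' log2 values gave the same. The call held in 6 of 6 fits with 1 array left out (−2.11 to −1.50, adjusted p 0.00348 to 0.0377) and with the replicates as a block (adjusted p = 0.000421). It was lost with equal medians (−1.58, adjusted p = 0.123), where all genes had a median of −0.18, without the 6 arrays numbered 1 at 4 h (−1.39, adjusted p = 0.109), and when only these 2 groups were fitted (−1.82, adjusted p = 0.588, with 0 genes called in that fit).

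BCL2L11 was also read by 2 further, dimmer probes, each detected on 9 of the 36 arrays and on all 3 arrays of LPS at 4 h. The probe ILMN_1774997 had 4.88, 5.88 and 5.21 in SB+LPS at 4 h, against 6.44, 7.2 and 7.43 in LPS. It differed by −1.70 (limma adjusted p over all detected probes = 0.00395), and in LPS against control by 1.40 (0.00163). The probe ILMN_1766541 had 5.6, 5.71 and 5.25 in SB+LPS, against 6.55, 5.96 and 6.34 in LPS. It differed by −0.77 (adjusted p = 0.0454), and in LPS against control by 0.78 (0.00455). All 3 probes moved the same way in both comparisons, on the same arrays and hence not as separate replicates.

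**Figure D3:**
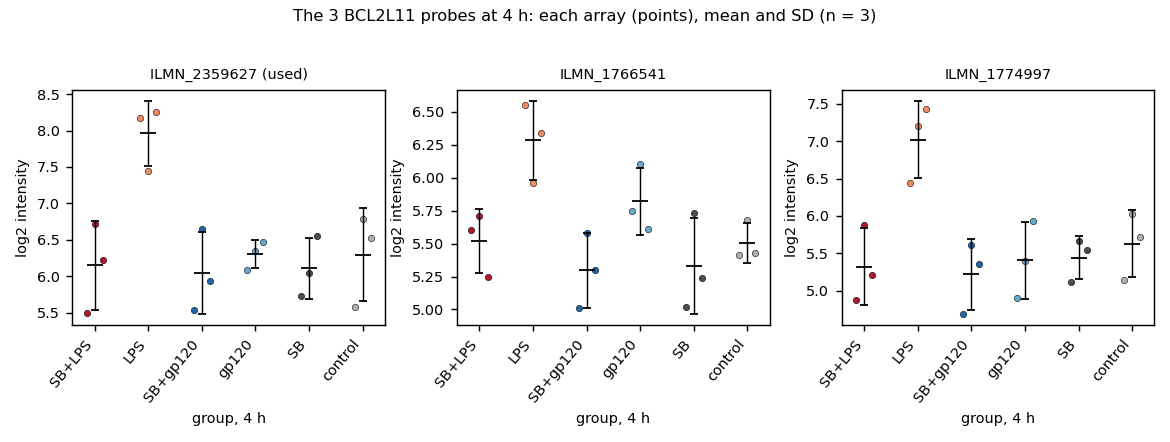
Log2 intensity of the 3 BCL2L11 probes in the 4 h groups, 1 point per array, with bars at the group means (n = 3). Points look alike whether or not the probe was detected. On each probe the 3 LPS arrays lie above the 3 SB+LPS arrays, by 1.82, 0.77 and 1.70 log2 units between means.

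The LPS response was also measured inside SB-treated cells, on a single slide. SB+LPS exceeded SB at 4 h for 5 of the 10 genes, and 0 were lower. All genes gave 6.03% higher calls, 9.62% lower calls and 15.7% calls in either direction. The member median was 0.51, against −0.09 over all genes. The 5 were BCL2A1, BID, BCL2L1, PMAIP1 and MCL1.

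BCL2A1 had 10.61, 8.68 and 9.57 in SB+LPS at 4 h, against 6.66, 6.45 and 6.43 in SB, a difference of 3.10 (SE 0.381, limma adjusted p = 5.17e-07) with no overlap. BID had 13.3, 12.67 and 12.79 in SB+LPS, against 11.33, 10.88 and 10.54 in SB, and differed by 2.01 (SE 0.244, limma adjusted p = 4.6e-07). BCL2L1 had 11.95, 11.13 and 11.03 in SB+LPS, against 10.47, 10.17 and 9.96 in SB, and differed by 1.17 (SE 0.216, limma adjusted p = 0.000267). In all of these the SB+LPS arrays lay above the SB arrays.

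PMAIP1 had 11.43, 11.5 and 11.98 in SB+LPS, against 10.34, 10.74 and 10.85 in SB, a difference of 0.99 (SE 0.222, limma adjusted p = 0.00217). MCL1 differed by 0.62 (SE 0.187, limma adjusted p = 0.0222), from 13.51, 13 and 13.51 in SB+LPS and 12.64, 12.6 and 12.93 in SB. BCL2L11 had 5.5, 6.72 and 6.22 in SB+LPS, against 5.73, 6.04 and 6.55 in SB. These arrays overlapped throughout, at a difference of 0.04 (95% confidence interval −0.70 to 0.78). The test of whether its LPS difference changed with SB, given below, did not call BCL2L11. BBC3 differed by 0.39, with a limma adjusted p of 0.142 and of 0.0405 with the replicates as a block.

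With equal medians, where all genes had a median of −0.66 and 5.43% of calls were higher, against 38.5% in quantile-normalised values, BCL2A1 and BID kept their calls, MCL1 (0.07), BCL2L1 (0.35) and PMAIP1 (0.17) lost theirs, and BCL2 was called lower (−1.45, adjusted p = 0.0152). MCL1 kept its call in 2 of 6 fits with 1 array left out, losing it without replicate 1 or 3 of SB+LPS or replicate 1 or 2 of SB (adjusted p up to 0.117), and without replicate 1 of SB the BCL2 difference was called (−1.05, adjusted p = 0.0397). With only the groups compared MCL1 (adjusted p = 0.14) and BCL2L1 (0.0528) lost their calls, and MCL1 also without the 6 arrays numbered 1 at 4 h (0.183).

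Whether SB altered the LPS difference itself was tested as an interaction, LPS minus control subtracted from SB+LPS minus SB. At 4 h BCL2L11 gave −1.63 (SE 0.51, limma adjusted p = 0.374) and BCL2A1 −1.28 (SE 0.539, limma adjusted p = 0.612). With the replicates as a block the limma adjusted p was 0.0981 for BCL2L11 and 0.159 for BCL2A1, also not called. 0 of the 10 members were called at either time in limma, with 2 at an unadjusted p under 0.05 at 4 h and 0 at 24 h, and 0.14% of all genes were called at 4 h and 0.133% at 24 h. At that unadjusted threshold there were 947 genes in all at 4 h and 777 at 24 h. The 4 groups of this test at 4 h lay on 2 slides, and with slide as a block, in a model that holds this difference equal at both times, BCL2L11 turned its sign to 0.53 (adjusted p = 0.993) and BCL2A1 gave −0.53 (0.993). For BCL2L11 the call of an SB effect thus comes from the direct comparison of SB+LPS with LPS, not from this test.

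The promoters of 3 members are shown because these genes behaved differently: BCL2A1 was called higher with LPS both with and without SB at 4 h, BCL2L11 was called higher in LPS than in control and lower in SB+LPS than in LPS, and BCL2 was called lower with LPS at 24 h. The sequences are the 250 bases before a transcription start in RefSeq on GRCh38.p14, written 5′ to 3′. Capitals mark the 1 match found, to a pair of GAAA blocks spaced by any 2 bases. The BCL2 window lies inside the annotated gene, 63123346 to 63320090, and so precedes an internal start, not its outermost 5′ end.
BCL2A1 promoter, chr15:79971197-79971446, minus strand: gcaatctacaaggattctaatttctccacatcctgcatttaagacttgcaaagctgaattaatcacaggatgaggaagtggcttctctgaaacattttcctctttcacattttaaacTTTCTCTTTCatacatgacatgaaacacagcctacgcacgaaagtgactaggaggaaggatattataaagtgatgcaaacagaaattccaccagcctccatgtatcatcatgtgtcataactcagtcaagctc
BCL2L11 promoter, chr2:111120664-111120913, plus strand: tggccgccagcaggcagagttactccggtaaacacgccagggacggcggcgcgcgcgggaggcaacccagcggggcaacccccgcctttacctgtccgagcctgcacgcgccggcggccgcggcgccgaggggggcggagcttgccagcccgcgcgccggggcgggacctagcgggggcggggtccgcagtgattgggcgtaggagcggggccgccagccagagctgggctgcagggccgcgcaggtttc
BCL2 promoter, chr18:63319770-63320019, minus strand: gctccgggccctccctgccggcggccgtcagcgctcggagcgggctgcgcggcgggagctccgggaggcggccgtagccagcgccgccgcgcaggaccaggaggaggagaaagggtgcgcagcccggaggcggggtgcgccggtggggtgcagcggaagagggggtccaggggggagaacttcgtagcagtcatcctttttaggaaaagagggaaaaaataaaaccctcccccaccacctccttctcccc

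Of the 10 members, 9 had promoter entries, with 14 starts in all. They were searched on both strands for the NF-κB consensus, for the GAAA pair, a core of interferon-responsive elements, and for TGANTCA and CACGTG, the usual cores bound by AP-1 and by E-box factors, which occur in 5.21%, 3.02%, 6.57% and 6.34% of all 35116 promoter windows of this length. The BCL2A1 window held TTTCTCTTTC, a match to the GAAA pair on the other strand, between 123 and 133 bases before the start, and the BCL2L11 and BCL2 windows held no match to these letters. The windows also differed in base composition. G and C made up 38.8% of the BCL2A1 window, a share that 11.4% of all windows matched or undercut, 76.8% of the BCL2L11 window and 70.0% of the BCL2 window, against a median of 58.0% over all windows. Among the others, BAX had 4 matches to CACGTG, BBC3 had TGAGTCA and CACGTG, and the overlapping windows of 2 BID starts shared a single CACGTG. No match in a window says nothing about a factor's binding.

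At 24 h LPS left 3 of the 10 genes changed on a single slide. BCL2A1 and BID were higher than in control and BCL2 was lower. All genes gave 11.9% calls, 6.63% higher and 5.27% lower. The member median was 0.12, against −0.06 over all genes.

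BCL2A1 had 7.06, 7.31 and 7.21 in LPS at 24 h, against 5.65, 5.67 and 5.17 in control. LPS was higher on every array, by 1.70 (SE 0.381, limma adjusted p = 0.00212), and the control probe was above background on 1 of 3 arrays. BCL2 had 9.62, 10.3 and 10.77 in LPS, against 12.07, 11.87 and 12.23 in control. All LPS arrays lay more than a log2 unit below all control arrays, with means of 10.23 ± 0.577 in LPS and 12.06 ± 0.18 in control and a difference of −1.83 (SE 0.344, limma adjusted p = 0.000278), 3.56-fold lower.

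BID had 11.28, 10.71 and 10.87 in LPS, against 10.32, 10.1 and 10.25 in control, a difference of 0.73 (SE 0.244) at a limma adjusted p of 0.048. Its arrays did not overlap, but the call was kept in 1 of 6 fits with 1 array left out, that without replicate 2 of LPS (adjusted p up to 0.26, without replicate 1 of LPS). BCL2L1 had 10.04, 9.72 and 9.51 in LPS, against 9.85, 9.68 and 9.89 in control, and BCL2L11 had 5.34, 6.48 and 5.67 in LPS, against 5.9, 6.69 and 7.01 in control. Both overlapped, at −0.05 and −0.71 (limma adjusted p = 0.932 and 0.242). Without background correction BCL2A1 differed by 0.84 (adjusted p = 0.0618), and the authors' log2 values gave the same. BID was not called without a detection filter (adjusted p = 0.0632) or over all detected probes (0.064). With equal medians BID differed by 0.68 (adjusted p = 0.398), and 76.3% of calls were higher, against 55.7% in quantile-normalised values.

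In SB-treated cells at 24 h the lower BCL2 was the 1 call among the members, where 1.87% of all genes were called lower, 3.35% higher and 5.22% in either direction. BCL2 had 10.07, 10.22 and 10.31 in SB+LPS, against 11.94, 11.9 and 12.01 in SB. The groups stood well apart, with a difference of −1.75 (SE 0.344, limma adjusted p = 0.00113). BCL2A1 had 7.09, 7.33 and 7.36 in SB+LPS, against 6.46, 6.51 and 6.5 in SB, higher on every array by 0.77 (limma adjusted p = 0.327). BID differed by 0.62, with a limma adjusted p of 0.161 and of 0.0072 with the replicates as a block, for which the replicate numbers paired these 2 groups. With only the groups compared BCL2A1 (adjusted p = 0.00488) and BID (0.0344) were called.

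These 24 h groups lay on different slides. With slide as a block the BCL2 difference was −1.68 (adjusted p = 0.598), and with equal medians it was −1.44 (adjusted p = 0.063). SB+LPS and LPS at 24 h were close for all 10 members, with differences from −0.42 for BAX to 0.32 for BCL2L1 and 0 calls in limma (0 at an unadjusted p under 0.05), where 1.05% of all genes were called. Over all genes 1311 had an unadjusted p under 0.05 in this comparison. BCL2 differed there by −0.03 (95% confidence interval −0.73 to 0.67). With equal medians all genes had a median of 0.53 in this comparison, and 78.1% of calls were higher, against 31.5% in quantile-normalised values.

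The second BCL2 probe, ILMN_1801119, also detected on all 36 arrays, differed by −1.99 in LPS against control at 24 h (limma adjusted p over all detected probes = 0.00018) and by −1.79 in SB+LPS against SB (0.00153). One more probe, ILMN_2363250, detected on 19 arrays, differed by −0.31 and −0.58 and was not called.

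The LPS difference was lower at 24 h than at 4 h for 4 of the 10 genes, tested as LPS minus control at 24 h less LPS minus control at 4 h. Lower calls made up 4.86% of all genes in this test, higher calls 7.36% and calls in either direction 12.2%, and the member median was −1.04, against 0.03 over all genes. BCL2A1 gave −2.69 (SE 0.539, limma adjusted p = 0.00107), BCL2L11 −2.37 (SE 0.51, 0.00206), BCL2L1 −1.36 (SE 0.305, 0.00305) and BID −1.30 (SE 0.346, 0.0124), which was lost without replicate 1 of LPS at 4 h (−1.08, adjusted p = 0.053). BCL2 gave −1.31, in the other sense, since its LPS difference was more negative at 24 h (limma adjusted p = 0.0754, and 0.041 without replicate 3 of LPS at 24 h).

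With slide as a block 0 of these 4 calls held, at −1.94 for BCL2A1, −0.21 for BCL2L11, −1.34 for BCL2L1 and −1.33 for BID. Over all genes that model gave 116 calls here, against 1660 in the main fit. With equal medians, where all genes had a median of 0.64 and 91.6% of calls were higher, against 60.2% in quantile-normalised values, the call of BCL2A1 was kept (−2.27, adjusted p = 0.00144) and those of BCL2L11 (−1.61, 0.0604), BCL2L1 (−0.51, 0.442) and BID (−0.57, 0.399) were lost. Without background correction BCL2L11 gave −1.32 (0.000682), and with the mean of its probes BCL2L1 gave −0.56 (0.0673) and BCL2L11 −1.49 (0.00353). By the mean of its probes BCL2 was called (−1.13, 0.0367).

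SB alone gave 0 calls among the members in limma, where 0.133% of all genes were called at 4 h and 0.92% at 24 h. At an unadjusted p under 0.05 there were 2 members at each time, BCL2A1 and MCL1. Over all 13582 genes 750 were under that threshold at 4 h and 1280 at 24 h. BCL2A1 had 6.66, 6.45 and 6.43 in SB at 4 h, against 5.93, 5.26 and 5.21 in control. It had 6.46, 6.51 and 6.5 in SB at 24 h, against 5.65, 5.67 and 5.17 in control. SB was higher on every array at both times and detected on all 6, by 1.05 at 4 h (SE 0.381, limma adjusted p = 0.521, between slides) and 0.99 at 24 h (SE 0.381, limma adjusted p = 0.326, within a slide). With slide as a block the 4 h difference was 0.30 (adjusted p = 0.953), and with only the groups compared the 24 h difference was called (adjusted p = 0.0266).

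MCL1 had 12.64, 12.6 and 12.93 in SB at 4 h, against 12.46, 12.31 and 12.24 in control, and 12.45, 12.37 and 12.72 in SB at 24 h, against 12.01, 11.97 and 12.28 in control. Again SB was higher on every array, by 0.39 (limma adjusted p = 0.894) and 0.42 (limma adjusted p = 0.448). With equal medians all genes had a median of −0.31 at 4 h and 0.22 at 24 h in SB against control.

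gp120 gave 0 calls among the members and 0 among all 13582 genes in limma at both times. In gp120 against control at 4 h the differences ran from −0.12 to 0.16, with 95% confidence intervals inside −0.87 to 1.06, and at 24 h from −0.29 for PMAIP1 to 0.73 for BAX, with intervals inside −0.83 to 1.48. At an unadjusted p under 0.05 there were 0 members at either time, and 259 genes in all at 4 h and 409 at 24 h. BCL2A1 had 5.76, 5.43 and 5.48 in gp120 at 4 h, against 5.93, 5.26 and 5.21 in control, which overlapped.

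SB+gp120 against gp120 also gave 0 calls among the members in limma, with 0.199% of all genes called at 4 h and 4.68% at 24 h, and with 0 members at 4 h and 2 at 24 h at an unadjusted p under 0.05. Of all 13582 genes, 1160 were under that threshold at 4 h and 2720 at 24 h, so the members did not stand out. The largest member difference at 24 h was that of BAX, with 9.45, 9.83 and 8.57 in SB+gp120, against 9.9, 10.99 and 10.37 in gp120. Its arrays did not overlap, at −1.13 (SE 0.368, limma adjusted p = 0.069). It was called without replicate 2 of SB+gp120 (−1.41, adjusted p = 0.0458) or without replicate 1 of gp120 (−1.40, adjusted p = 0.0495). These groups lay on different slides, and with slide as a block the difference was −0.35 (adjusted p = 1). A second BAX probe, ILMN_1683300, detected on 34 arrays, differed there by −0.26 (limma adjusted p over all detected probes = 0.732), with overlap, and ILMN_2258383, detected on 6 arrays, by −0.39 (0.252). BAX was among the more variable members, and its control arrays at 24 h alone ran from 8.75 to 10.24. SB+gp120 against SB likewise gave 0 calls, with 0% of all genes called at 4 h and 0.14% at 24 h and with 0 members at 4 h and 1 at 24 h at an unadjusted p under 0.05. Over all genes 542 were under that threshold at 4 h and 676 at 24 h.

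Across the 12 groups, the order of levels of BCL2A1 began with LPS at 4 h (mean 9.85) and SB+LPS at 4 h (9.62), which overlapped. SB+LPS at 24 h (7.26) and LPS at 24 h (7.19) followed, apart from the groups on either side of them and overlapping each other. The remaining 8 groups ran from SB at 4 h (6.52) to control at 4 h (5.47), each overlapping its neighbour. BID was ordered in a like way at the top, with SB+LPS at 4 h (12.92) and LPS at 4 h (12.87) above all others, while LPS at 24 h (10.95) lay among the 4 h groups without LPS.

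For BCL2 the order was led by the 4 groups at 24 h without LPS, with means from 12.12 in gp120 to 11.9 in SB+gp120, and no array of theirs fell to the level of the next group, control at 4 h (11.04). SB+LPS at 24 h (10.2) and LPS at 24 h (10.23) were at the bottom. For BCL2L11 LPS at 4 h (7.97) stood alone, and the other 11 groups ran from 6.63 to 5.83, each overlapping the next. BBC3 changed least, its group means covering 0.51 log2 units.

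Other probes of the members gave the following. BID was read by 2 more probes, ILMN_2372413 and ILMN_2259495, which differed by 2.18 (limma adjusted p over all detected probes = 0.00221) and 1.66 (6.54e-06) in LPS against control at 4 h. At 24 h they differed by 1.43 (0.0839) and −0.24 (0.686), so the BID probes disagreed in sign there. The second MCL1 probe, ILMN_1756806, differed by 1.21 at 4 h (0.0132) and in SB+LPS against SB by 0.84 (0.128). The second PMAIP1 probe, ILMN_1689525, differed by 0.55 (0.209) and 0.89 (0.055). The second BCL2L1 probe, ILMN_1742410, detected on 5 arrays, differed by 0.17 at 4 h (0.546). The further BAX probes ILMN_1683300 and ILMN_2258383 differed by 0.49 (0.31) and 0.53 (0.0366) at 4 h, opposite in sign to the −0.15 of the probe used. With the probes of a gene averaged, LPS against control at 4 h gave 0.74 for BCL2L1 (0.000248), 0.89 for MCL1 (0.00362) and 0.58 for PMAIP1 (0.0729), and at 24 h 0.64 for BID (0.139). The median standard error of the bead mean within an array was 6.26% to 7.3% of that mean for 9 of the genes. It was 9.94% for BAK1, which had as few as 6 beads on an array.

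The surrounding pathway was read from 5 further lists, whose counts stand beside the shares over all genes. These were 10.5% higher and 16.4% lower in LPS against control at 4 h, 6.63% and 5.27% at 24 h, 6.03% and 9.62% in SB+LPS against SB at 4 h, and 3.35% and 1.87% at 24 h. Of 12 other BCL2 family genes tested, 3 were higher and 2 lower in LPS than in control at 4 h, with a list median of 0.08. BIK, a BH3-only gene of the endoplasmic reticulum, had 4.98, 5.3 and 6.98 in LPS, against 6.94, 8.38 and 8.74 in control. The arrays overlapped slightly, at −2.27 (limma adjusted p = 0.00521), with the LPS probe above background on 1 of 3 arrays. BIK had 6.44, 6.51 and 7.12 in LPS at 24 h, against 9.48, 9.04 and 9.28 in control, apart on every array by −2.58 (limma adjusted p = 0.00298).

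BMF, a BH3-only gene linked to the cytoskeleton, had 7.24, 6.89 and 6.5 in LPS at 4 h, against 5.78, 5.37 and 5.82 in control, higher by 1.22 (limma adjusted p = 0.000776). At 24 h it was higher by 1.34 (0.000442). In SB+LPS at 24 h BMF had 6.06, 6.16 and 6.12, against 7.87, 7.07 and 6.6 in LPS, lower on every array by −1.07 (limma adjusted p = 0.0334, between slides, with slide as a block −0.82 and adjusted p = 0.999). It was the 1 call of this list there. BNIP1 (0.70) and BNIP2 (−0.85) were also among the calls at 4 h, where only the 4 largest differences were named. BIK and BMF were the 2 calls at 24 h. In SB+LPS against SB at 4 h 2 of the 12 were higher and 0 lower, BMF and BNIP1. BMF was above background on 3 of 3 SB+LPS arrays and 0 of 3 SB arrays and was at least 1.54-fold higher in SB+LPS (limma adjusted p = 0.00595), and BNIP1 was higher by 0.63. In SB+gp120 against gp120 at 24 h BAD was the 1 call of the 12, lower by −0.76 (limma adjusted p = 0.0196). That comparison was between slides, with 4.68% of all genes called and 0 called with slide as a block.

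Among 7 inhibitors of apoptosis and their antagonists, 2 were higher and 1 lower in LPS at 4 h (median 0.24). XAF1, an antagonist of XIAP and an interferon-responsive gene, had 11.52, 11.96 and 10.67 in LPS, against 9.87, 10.01 and 9.44 in control, higher by 1.61 (limma adjusted p = 0.000424), and at 24 h by 1.46 (0.00199). HTRA2, a mitochondrial protease, was higher by 0.66 and BIRC6 lower by −0.98 at 4 h. XAF1 was also the 1 call in SB+LPS against SB, at 1.26 at 4 h and 1.32 at 24 h.

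Of 7 genes of the apoptosome and caspases, 0 were higher and 2 lower in LPS at 4 h, with a median of −0.44. APAF1, the scaffold of the apoptosome, had 8.26, 9.39 and 9.41 in LPS, against 9.87, 10.09 and 10.49 in control, lower on every array by −1.13 (limma adjusted p = 0.00723). CASP2 differed by −0.57 (0.0286). In SB+LPS against SB APAF1 (−1.33, 0.00303) and CASP6 (−0.82, 0.0319) were lower. At 24 h 0 of the 7 were called in limma in LPS against control, with 1 at an unadjusted p under 0.05, and the test of LPS by time called APAF1 (1.36, 0.0388). Over all genes 3145 had an unadjusted p under 0.05 in LPS against control at 24 h.

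Of 7 genes of the death receptor pathway, 2 were higher and 1 lower in LPS at 4 h (median 0.45). CFLAR, the caspase-8 inhibitor c-FLIP, had 11.06, 10.51 and 10.98 in LPS, against 9.61, 9.53 and 9.44 in control, higher by 1.32 (limma adjusted p = 0.000131). It was higher by 1.62 in SB+LPS than in SB (1.2e-05). TNFRSF10A, a receptor for TRAIL, was above background on 0 of 3 LPS arrays and 3 of 3 control arrays, at least 1.5-fold lower in LPS (limma adjusted p = 0.000941). At 24 h TNFRSF10B, the other death receptor for TRAIL, was higher in LPS by 1.12 (0.0032) and CFLAR by 0.80 (0.0248). The adaptor TRADD differed by 0.74 at 4 h (0.0395). In SB+LPS against SB at 4 h TNFRSF10A was above background on 0 of 3 SB+LPS arrays and 3 of 3 SB arrays. It was at least 1.15-fold lower in SB+LPS (limma adjusted p = 0.0144). The test of LPS by time called TNFRSF10A (1.54, limma adjusted p = 0.00279).

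Of 13 regulators of BCL2 proteins and their genes, 5 were higher and 1 lower in LPS at 4 h (median 0.22), and 4 were higher and 0 lower at 24 h. NFKB2, RELB and NFKB1, which encode NF-κB subunits, were higher by 4.53, 2.68 and 2.64 at 4 h and by 1.71, 2.46 and 1.65 at 24 h. FOXO3, a transcription factor known to act on BCL2L11, was lower at 4 h by −1.15 (limma adjusted p = 0.00142). MDM2, which restrains p53, was higher at 24 h by 0.79 (0.0133). In SB+LPS against SB 4 h gave 4 higher and 1 lower of the 13 and 24 h 3 higher and 0 lower. The lower one was BAG1, which was above background on 0 of 3 SB+LPS arrays and was at least 2.07-fold lower than in SB (limma adjusted p = 0.009). NFKB2, RELB and NFKB1 were higher in SB+LPS by 4.02, 2.53 and 2.3 at 4 h and by 1.61, 1.28 and 1.34 at 24 h. RELB was the 1 call of the 13 at 24 h in SB against control (0.94, limma adjusted p = 0.0299) and in SB+gp120 against gp120 (0.77, 0.0439). LPS by time called 1 higher and 4 lower (all genes 7.36% and 4.86%), among them NFKB2 (−2.82), FOXO3 (1.39), E2F1 (−1.34) and HUWE1 (−1.02). With equal medians BNIP1 (−0.18), HTRA2 (−0.19) and TRADD (−0.12) turned their sign in LPS against control at 4 h, and with slide as a block BNIP2 (0.03), BIRC6 (0.20), TRADD (−0.04) and FOXO3 (0.13) did. List genes that kept their sign but lost their call in these settings are not named here. Over all genes this comparison gave 428 calls with slide as a block, against 3646 in the main fit.

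The genes whose 12 group means followed those of a called member most closely were found by Pearson correlation, as a description. For BCL2A1 they were RAP2C (0.984), MAFF (0.984) and SDC4 (0.983), and for BCL2L1 LTA (0.986), RCN1 (0.985) and PAQR9 (0.983). For BID they were PURB (0.991), NINJ1 (0.988) and SNX11 (0.985), and for PMAIP1 MCOLN3 (0.979), ZNF140 (0.975) and STOX2 (0.974). MCL1 was followed by GVINP1 (0.971), KRTAP12-2 (0.955) and SDK1 (0.954), and BCL2 by PTPRF (0.981), RAB26 (0.95) and DEPDC1 (0.946). BCL2L11 had the lowest values, with TMEM116 (0.92), INO80D (0.915) and ATXN7L3B (0.907). These correlations run over 12 groups that share slides and times.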

How the data were processed

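RNA of THP-1 cells was hybridised to Illumina HumanHT-12 v4 arrays, 3 biological replicates a group. Per the file headers, the raw table held each probe's average bead intensity and detection p-value (47222 probes), as well as bead numbers and the standard error between beads. Both bead columns served only to describe the precision of the bead mean. A second deposited table held log2 values, which matched quantile-normalised log2 raw intensities to within 0.000791. The genome build is not given in the sources used here.

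Background correction, quantile normalisation and the log2 transform were done with neqc (limma 3.58.1, R 4.3.3, offset 16). Probes detected at p under 0.05 on at least 3 arrays were kept (26473). Symbols came from the platform annotation, updated through RefSeq gene IDs; 30112 probes had 1 symbol, 8 several and 17102 none. The brightest probe on average stood for each gene. lmFit and eBayes fitted 1 mean per group over all 36 arrays, and 17 contrasts were tested (14 between pairs of groups, 3 interactions), two-sided, with Benjamini-Hochberg adjustment within a contrast over 13582 genes. An exact test of 3 arrays against 3 cannot go below 0.1. Where a group was not above background on any array, the fold is a lower limit set by the dimmest signal detected on each array. The code was tested on simulated data.

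The members, the lists, the tests and the rule for named genes were chosen with earlier results of these data known. The rule named all 10 members, up to 4 called genes of each other list per comparison with the largest differences, and the 3 genes most correlated with each member called in LPS against control.

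Replicate numbers were checked for pairing through the correlation of same-numbered arrays' deviations from their group means. All 7 comparisons at 4 h passed 0.1 (0.123 to 0.7), and 2 of 7 at 24 h (0.00598 to 0.384), namely SB+LPS and SB+gp120 against SB. The slide model held slide, stimulus, SB and time with all pairwise interactions.

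Results were recomputed without background correction, with equal array medians, from the authors' values, with no or a stricter detection filter (p under 0.01), with every detected probe, with probes averaged per gene, with a replicate or a slide block, with only the compared groups, with trended robust variances, and without each array. Leaving out the 6 arrays numbered 1 at 4 h was added after seeing the data.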

Additional observations from a re-analysis of the deposited data

Results flagged for a closer look

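The LPS difference changed between 4 h and 24 h for 4 members, by the interaction test in limma. The change was −2.69 for BCL2A1, −2.37 for BCL2L11, −1.36 for BCL2L1 and −1.30 for BID, each a lower LPS difference at 24 h. The 4 h difference was taken between slides and the 24 h difference within a slide. The part of the slide in the change cannot be told apart from that of time without a slide model, and with slide as a block 0 of the 4 were called. All-gene calls in this test were 116 with that block, against 1660 in the main fit. Without replicate 1 of LPS at 4 h, a dim array, BID gave −1.08 (adjusted p = 0.053).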

How the results depend on the processing

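BCL2A1 and BID kept their calls in LPS against control and in SB+LPS against SB at 4 h in 13 of 13 alternatives, and BCL2 in LPS against control at 24 h in 12 of 12. These alternatives were not all separate. The slide block could not change SB+LPS against SB at 4 h or LPS against control at 24 h, each within a slide. The authors' values repeated the setting without background correction. Counts of members called moved by more than 1.5 times as follows, and the cause was not tested. With equal medians the count was 3 in SB+LPS against SB at 4 h (main 5), 0 at 24 h (main 1), 0 in SB+LPS against LPS at 4 h (main 1) and 1 in LPS by time (main 4). All-gene calls in these were 4806, 553, 29 and 1528, against 2126, 709, 295 and 1660 in the main fit. With slide as a block the count of members was 2 in LPS against control at 4 h (main 6), 0 in SB+LPS against SB at 24 h and 0 in LPS by time. All-gene calls fell there to 428, 38 and 116, against 3646, 709 and 1660 in the main fit. With the replicate block, shared or within each time, it was 2 in SB+LPS against SB at 24 h and 1 in SB+gp120 against gp120 at 24 h (main 0; BAX, −1.13, adjusted p = 0.0321), and within each time 1 in SB against control at 24 h (main 0; BCL2A1, 0.99, adjusted p = 0.0311), though the replicate numbers did not pass the pairing check in the last 2 comparisons and BAX, between slides, gave −0.35 with slide as a block (adjusted p = 1); in LPS by time the block added BCL2 (adjusted p = 0.00962) and PMAIP1 (0.0395). With the replicate block within each time, all-gene calls at 24 h were 1360 in SB+LPS against SB (main 709), 1681 in SB+gp120 against gp120 (main 635) and 481 in SB against control (main 125). With only the groups compared the count of members was 3 in SB+LPS against SB at both times, 0 in SB+LPS against LPS at 4 h and 1 in SB against control at 24 h. All-gene calls there were 762 at 4 h (main 2126) and 1505 at 24 h (main 709) in SB+LPS against SB, and 252 (main 125) in SB against control. Without the 6 arrays numbered 1 at 4 h the count of members was 0 in SB+LPS against LPS at 4 h, where 56 of all genes were called (main 295). Signs turned with equal medians for MCL1 (−0.22), PMAIP1 (−0.27), BNIP1 (−0.18), HTRA2 (−0.19) and TRADD (−0.12) in LPS against control at 4 h and for BNIP1 (−0.20) in SB+LPS against SB at 4 h, and with slide as a block for BCL2L11 (−0.49), BNIP2 (0.03), BIRC6 (0.20), TRADD (−0.04) and FOXO3 (0.13) in LPS against control at 4 h. Leaving out 1 array gave 4 to 6 members called in LPS against control at 4 h, 2 to 3 at 24 h, 4 to 5 in SB+LPS against SB at 4 h, 3 to 5 in LPS by time and 0 to 1 in SB+gp120 against gp120 at 24 h. Over all genes, LPS against control at 4 h gave 3646 calls, 428 with slide as a block, 6482 with equal medians and 2030 with only the groups compared, and SB+LPS against LPS at 4 h gave 295, 960 with the replicate block, 29 with equal medians and 0 with only the groups compared. The number of arrays and the closeness of BCL2A1 to background in control limit the precision.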
